A study of Mus musculus with 4 samples.

Results

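Homeobox genes encode transcription factors that bind DNA through a homeodomain. The 6 described here are Irx4, Pdx1, Dlx5, Hoxc10, Dlx3 and Prrx2, members of the Iroquois, ParaHox, Distal-less, Hox and paired-related families. They were picked by symbol from the 17 homeobox genes among the 1142 genes of the deposited tables, leaving out the 3 on chromosome 19 (Tlx1, Lbx1 and Nkx2-3) and 8 others. They were picked because their values differed between the groups, so those values are given as a description, and the calls of a test on them support nothing.

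RNA was sequenced from tumours of female mice that all carried the MMTV-PyMT transgene and were of mixed C57BL/6 background with littermate controls. The transgene expresses the polyoma virus middle T antigen from a mammary tumour virus promoter and gives mammary tumours. There were 2 tumour samples with a knockout of miR-9 exon 1 (knockouts 1 and 2) and 2 without it (controls 1 and 2). The labels name the parental knockout strain as heterozygous. They give neither the zygosity of the tumour-bearing mice, nor their age, nor whether samples came from separate animals. Any SD therefore measures the spread between these samples, which may be technical. The SE of a log2 change does so only in part, as it also draws on the spread of the other genes tested.

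The tables hold only genes that differ between the groups: among genes with reads in both, the smallest ratio of group means was 2.0. No miR-9 transcript was analysed here, so the knockout itself was not checked in these data. Relative depth, from the value of 1 read, was 1.11 and 1.04 in knockouts 1 and 2 and 0.998 and 0.885 in controls 1 and 2. Of 18 luminal mammary genes 5 were listed (Krt19, Prlr, Foxa1, Spdef and Esr1), all at 77.2 normalised reads or more in every sample. In bulk tissue, fewer cells of a type and less RNA per cell cannot be told apart, and this holds for each result here.

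Homeodomain proteins set the identity of body regions and cell types during development, and many of their genes are silent in adult tissue outside a few cell types. Hox genes lie in clusters that pattern the body axis. Distal-less genes lie in pairs and act in jaw, limb, bone, skin and placenta, downstream of bone morphogenetic proteins in several of these. miR-9 is a microRNA of the nervous system that has been studied in breast tumours, and it pairs with messenger RNAs through its seed, bases 2 to 8 from the 5' end.

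The mature miR-9-5p is shown because it is the main product of the disrupted gene family. The same sequence is made from 3 loci, and the labels do not say which was deleted. It is given 5' to 3' from RefSeq (GRCm38.p6), with the seed in capitals.
miR-9-5p: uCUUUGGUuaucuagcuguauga

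Of the 6 genes, Dlx3 alone had a match to that seed, ACCAAAG, in its longest annotated 3' UTR (GENCODE M21, GRCm38). The match lies in a UTR of 1540 bases, at chr11:95124315-95124321 on the plus strand, and is followed by an A. It is shown with its flanks, chr11:95124305-95124331, match in capitals.
Dlx3 site: gagggtccaaACCAAAGaaaactcccc

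The 3' UTRs of the other 5 genes were 321 (Prrx2), 574 (Irx4), 701 (Dlx5), 818 (Hoxc10) and 1023 (Pdx1) bases long and held no such match. For miR-9-3p, the other strand of the same hairpin, none of the 6 UTRs held a match to its seed, AGCTTTA. The miR-9-5p match occurred in 12.2% of 21028 protein-coding genes with an annotated 3' UTR, and in 15.0% of the 1038 such genes of the table. It was in 15.5% of the listed genes that were higher in knockout tumours and in 14.3% of those that were lower. The miR-9-3p match was in 14.8% of the listed genes that were higher and in 8.70% of those that were lower. The median UTR was 1270 bases long in the genes that were higher and 963 in those that were lower. The part of UTR length in these shares was not tested. A match is a run of letters and not a measured target. Dlx3, the gene with the match, was lower in knockout tumours.

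Irx4, Pdx1, Dlx5 and Hoxc10 had more RNA in knockout than in control tumours, and Dlx3 and Prrx2 had less. In all 6 genes the knockout and control samples did not overlap, and all 6 were called by limma, 4 higher and 2 lower. Of all 1142 listed genes 99.9% did not overlap between the groups either, and 99.8% were called, 61.3% higher and 38.5% lower, because the table was selected for difference, so the counts say nothing particular about the 6. Directions are relative to the deposited scaling, but none of the 6 turned round with 3 scalings computed from the listed genes themselves. Of these, TMM and RLE take most genes as unchanged, which a table selected for difference does not meet. A call lost with them, here or below, may come from that alone. The plot of the 6 genes by sample shows the values given next.

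**Figure D1:**
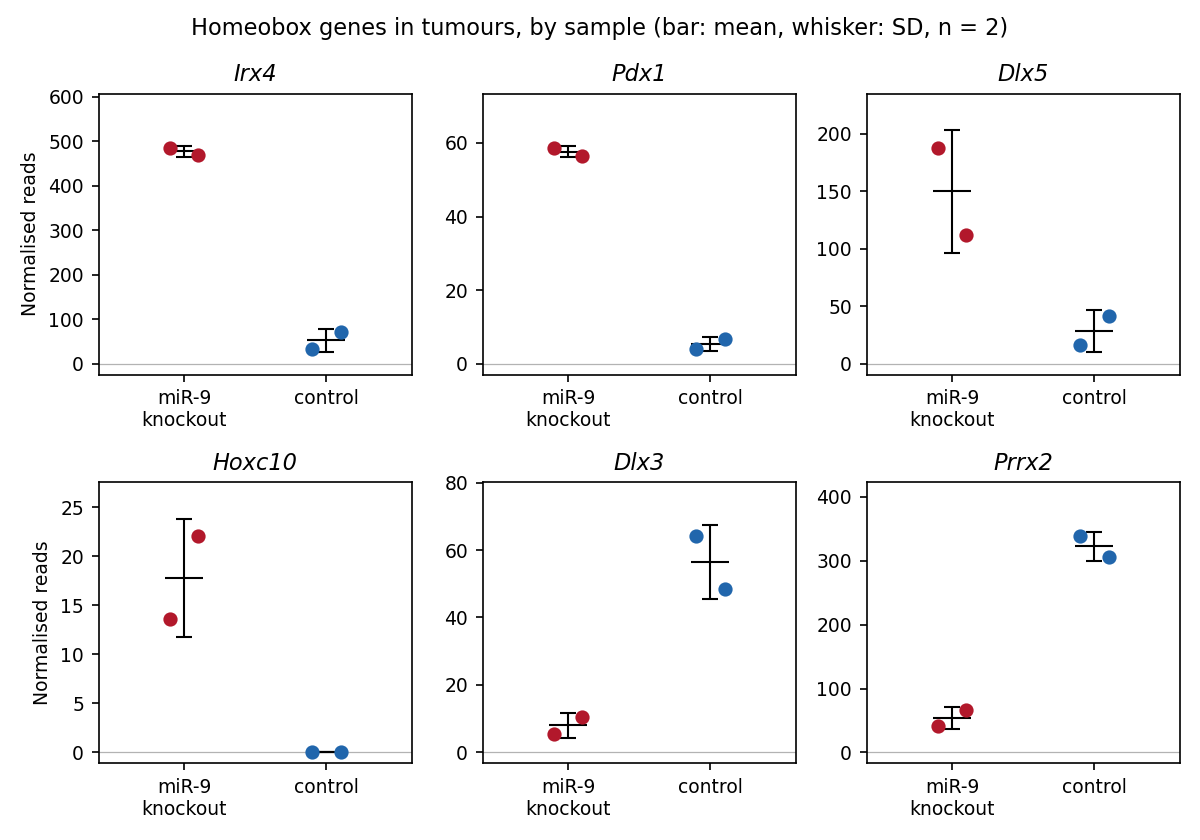
Normalised reads of the 6 homeobox genes (y axis, linear, 0 marked by a grey line, own range in each panel) in miR-9 knockout tumours (red, left) and control tumours (blue, right). Points are samples, long bars group means and whiskers SD (n = 2 per group), and in every panel the groups do not overlap, as in 99.9% of the 1142 listed genes.

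Irx4 encodes an Iroquois factor of the three-amino-acid-loop class, best known for keeping the identity of heart ventricle muscle. The gene (ENSMUSG00000021604) lies on chromosome 13, 73260479 to 73269608, plus strand. It had 486 and 469 normalised reads in knockouts 1 and 2, against 34.1 and 71.2 in controls 1 and 2. Both knockouts were close to each other and far above the controls, which differed from each other 2.09-fold. The means were 477 ± 12.3 in knockout tumours and 52.6 ± 26.2 in control tumours (SD, n = 2 each), a 9.07-fold difference. The change was 3.25 ± 0.43 (SE) on the log2(value + 1) scale, and lay between 2.73 without control 1 and 3.77 without control 2. Per kilobase of gene length, Irx4 had the highest level of the 6 genes in both knockouts, 186 and 180 normalised reads per kilobase.

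Pdx1 encodes the factor that the pancreas needs to form and that insulin-producing beta cells need to work. It (ENSMUSG00000029644) lies on chromosome 5, 147269959 to 147275848, plus strand, and had 58.7 and 56.6 normalised reads in the knockouts against 4.01 and 6.78 in the controls. The knockouts were again nearly equal, while the controls rested on 4 and 6 reads. The means were 57.6 ± 1.53 in knockout tumours and 5.39 ± 1.96 in control tumours (SD, n = 2 each), a 10.7-fold difference. Counting error alone gives the ratio of reads corrected for depth, 10.9, an exact 95% interval of 5.71 to 23.2. The log2 change was 3.23 ± 0.60 (SE). The span of the antisense gene Plut, introns included, overlaps the first 1563 bases of Pdx1. Exon overlap was not looked up and no strand setting is stated, so reads there may belong to either.

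Dlx5 encodes a Distal-less factor of jaw, limb and bone formation. It (ENSMUSG00000029755) lies on chromosome 6, 6877805 to 6882085, minus strand, and had 188 and 112 normalised reads in the knockouts against 16.0 and 41.8 in the controls. Both groups were spread out, with a 1.68-fold gap between the knockouts and a 2.61-fold gap between the controls, the widest among controls of the 5 genes with control reads. The means were 150.1 ± 53.6 in knockout tumours and 28.9 ± 18.2 in control tumours (SD, n = 2 each), a 5.19-fold difference. The log2 change of 2.44 ± 0.56 (SE) depended on the controls, at 1.77 without control 1 and 3.10 without control 2.

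Hoxc10 encodes a posterior Hox factor, active in the lumbar region and hind limb of the embryo. It (ENSMUSG00000022484) lies on chromosome 15, 102966796 to 102971893, plus strand, and had 13.6 and 22.1 normalised reads in the knockouts, from 15 and 23 reads, and 0 in both controls. It was at least 11.1-fold higher in knockout tumours, set against a floor of 3 reads over both controls together. Its fitted log2 change ran from 2.16 to 7.44 with the setting, the second with a pseudocount of 0.1, and is no measure of size where controls are at 0. The annotated gene Hoxc5 starts 0.647 kb downstream of the start of Hoxc10 on the same strand. Its span, introns included, covers 4451 bases of Hoxc10. Exon overlap was not looked up, so reads in that stretch may belong to either annotation.

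Dlx3 encodes a Distal-less factor of placenta, epidermis, hair and teeth. It (ENSMUSG00000001510) lies on chromosome 11, 95120119 to 95125296, plus strand, and had 5.42 and 10.5 normalised reads in the knockouts, from 6 and 11 reads, against 64.1 and 48.6 in the controls. Here the controls were high and near each other, and both knockouts were close to the level of a few reads. The means were 7.98 ± 3.62 in knockout tumours and 56.4 ± 11.0 in control tumours (SD, n = 2 each), 7.06-fold lower in the knockouts. Counting error alone gave the ratio of control to knockout reads, 7.19, an exact 95% interval of 4.28 to 12.8. The log2 change was -2.72 ± 0.60 (SE).

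Prrx2 encodes a paired-related factor of limb and facial mesenchyme. It (ENSMUSG00000039476) lies on chromosome 2, 30834972 to 30881251, plus strand, and had 41.6 and 66.2 normalised reads in the knockouts against 339 and 306 in the controls. The controls differed only 1.11-fold, the smallest gap between controls among the 5 genes with control reads, and both knockouts lay far below them. The means were 53.9 ± 17.4 in knockout tumours and 322 ± 23.0 in control tumours (SD, n = 2 each), 5.99-fold lower in the knockouts, with a log2 change of -2.60 ± 0.40 (SE).

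The order of levels per kilobase differed between the groups. In knockout tumours it was Irx4 (183 ± 4.70 normalised reads per kilobase), Dlx5 (66.3 ± 23.7), Prrx2 (27.5 ± 8.87), Pdx1 (26.7 ± 0.711), Hoxc10 (9.33 ± 3.15) and Dlx3 (3.06 ± 1.39). In control tumours it was Prrx2 (164 ± 11.7), Dlx3 (21.6 ± 4.22), Irx4 (20.2 ± 10.1), Dlx5 (12.8 ± 8.05), Pdx1 (2.50 ± 0.908) and Hoxc10 at 0 (SD, n = 2 each). The samples of Prrx2 and Pdx1 overlapped in knockout tumours, and in control tumours those of Irx4 overlapped with Dlx3 and with Dlx5. Dlx3 was above Dlx5 in both controls, but in control 2 only at 18.6 against 18.5. Of the summed level per kilobase of the 6 genes, Irx4 made up 57.0% and 59.0% in the knockouts and 5.96% and 12.2% in the controls. Prrx2 made up 6.48% and 11.1% in the knockouts and 78.7% and 69.8% in the controls. So Irx4 was the most abundant of the 6 in each knockout and Prrx2 in each control. The median level of the 1142 listed genes was 40.5 normalised reads per kilobase in knockout tumours and 29.8 in control tumours, and in knockout tumours only Irx4 and Dlx5 were above that median, in control tumours only Prrx2.

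Promoter sequences from 250 bases before to 50 after the RefSeq start were at hand for 3 of the 6 genes. All 3 are shown, for Irx4 and Pdx1, higher in knockout tumours, and Prrx2, lower. The motifs searched, on both strands, were the homeodomain-type palindrome TAATTA, the TATA box TATAAA, the CCAAT box CCAAT and the GC box GGGCGG, and capitals mark each match on either strand. The sequences are from GRCm38.p6, plus strand, at chr13:73260247-73260546 for Irx4, chr5:147269847-147270146 for Pdx1 and chr2:30845117-30845416 for Prrx2. In all 3 the RefSeq start lies inside the gene's deposited interval and not at its first base. Only for Prrx2 does the whole window lie inside the interval, whose first base is 30834972.
Irx4: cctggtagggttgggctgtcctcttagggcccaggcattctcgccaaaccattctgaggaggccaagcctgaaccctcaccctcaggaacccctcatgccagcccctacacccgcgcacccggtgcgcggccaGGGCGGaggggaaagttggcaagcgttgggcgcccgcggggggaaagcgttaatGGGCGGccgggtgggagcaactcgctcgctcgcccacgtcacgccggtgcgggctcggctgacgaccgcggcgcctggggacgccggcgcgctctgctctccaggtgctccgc
Pdx1: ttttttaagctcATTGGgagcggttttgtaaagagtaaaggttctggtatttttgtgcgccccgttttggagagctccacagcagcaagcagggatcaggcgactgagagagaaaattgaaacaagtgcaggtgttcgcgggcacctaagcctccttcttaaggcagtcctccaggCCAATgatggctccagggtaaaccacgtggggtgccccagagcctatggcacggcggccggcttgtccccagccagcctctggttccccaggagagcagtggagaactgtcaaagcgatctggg
Prrx2: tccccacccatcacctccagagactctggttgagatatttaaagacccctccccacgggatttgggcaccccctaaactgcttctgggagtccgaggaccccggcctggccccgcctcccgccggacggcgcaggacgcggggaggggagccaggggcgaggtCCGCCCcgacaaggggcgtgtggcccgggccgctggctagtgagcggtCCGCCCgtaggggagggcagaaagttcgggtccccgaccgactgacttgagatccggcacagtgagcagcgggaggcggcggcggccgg

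The Irx4 window held the GC box at 2 places, starting 117 and 63 bases before the start, and so did the Prrx2 window, 87 and 39 bases before it, there on the minus strand. The Pdx1 window held no GC box and 2 CCAAT boxes, 238 bases (minus strand) and 74 bases (plus strand) before the start. None of the 3 held TAATTA or TATAAA. No match overlapped another. Of all 32851 promoter windows of this length, 35.7% held the GC box, 37.4% the CCAAT box, 13.6% the TATA box and 5.29% TAATTA. The CG dinucleotide occurred 31 times in the Irx4 window, 11 times in Pdx1 and 28 times in Prrx2, against a median of 7 over all windows. The windows of Irx4, higher in knockout tumours, and Prrx2, lower, therefore shared the same motif and a like number of CG dinucleotides.

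Listed neighbours were found for both Distal-less genes. Distal-less genes sit in convergent pairs, and Dlx6, the partner of Dlx5, lies 9.24 kb from it on the opposite strand of chromosome 6. It had 27.1 and 4.79 normalised reads in knockouts 1 and 2, from 30 and 5 reads, and 0 in both controls, at least 10.2-fold higher against the same floor. Knockout 1 was the higher of the knockouts for both genes. The call of Dlx6 was lost without control 1, without control 2, and with scaling by TMM or RLE. The span of the antisense gene Dlx6os1, introns included, covers all 5235 bases of Dlx6. Exon overlap was not looked up and no strand setting is stated, so reads of Dlx6os1 may be counted in Dlx6. Dlx6os1 does not reach Dlx5.

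On chromosome 11 the nearest listed gene to Dlx3 was Dlx4os, an antisense transcript at the partner gene Dlx4, 19.8 kb away on the plus strand. Dlx4os had 7.23 and 4.79 normalised reads in the knockouts against 64.1 and 14.7 in the controls. It was lower, as Dlx3 was, but mostly through control 1, since its log2 change was -2.21 with all samples and -1.18 without control 1, where the call was lost, as it was without either knockout. It shares 1212 bases with Dlx4, which was not among the listed genes.

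**Figure D2:**
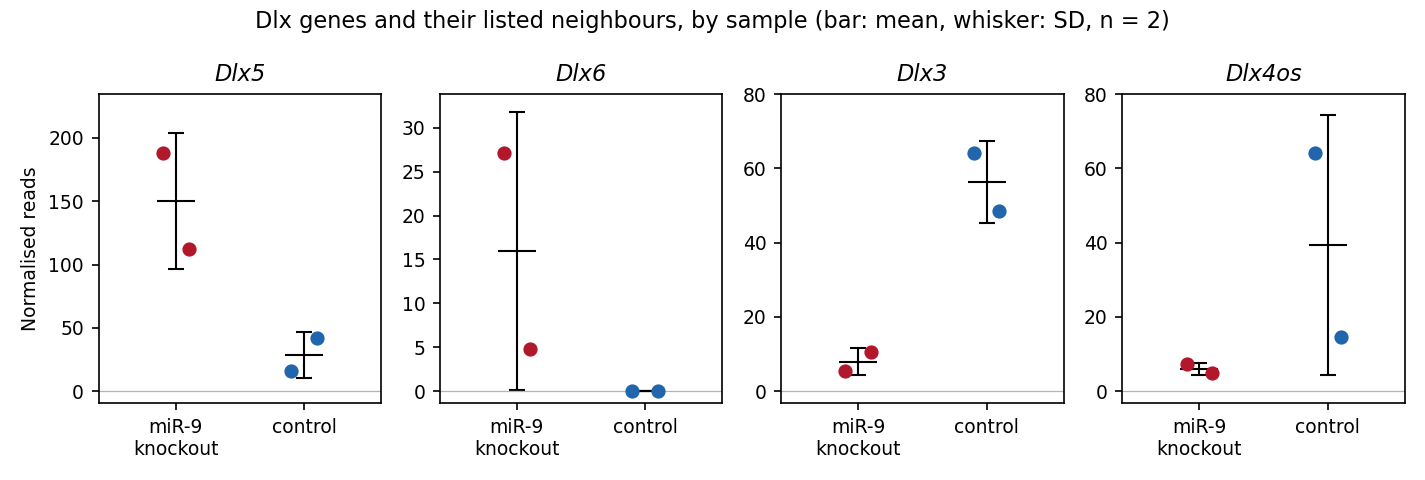
Normalised reads (y axis, linear, 0 marked by a grey line, own range in each panel) of Dlx5 and its neighbour Dlx6, and of Dlx3 and its neighbour Dlx4os, in miR-9 knockout tumours (red, left) and control tumours (blue, right). Points are samples, long bars means and whiskers SD (n = 2 per group); the Dlx5 pair was higher and the Dlx3 pair lower in knockout tumours, with 1 knockout far above the other for Dlx6 and 1 control far above the other for Dlx4os.

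The other 4 genes had no listed neighbour of this kind. Within 50 kb of Hoxc10 the annotation has 8 other protein-coding genes, Hoxc4, Hoxc5, Hoxc6, Hoxc8, Hoxc9, Hoxc11, Hoxc12 and Hoxc13, and 0 of them were listed. Of the 2 such genes around Pdx1, Cdx2 among them, and the 4 around Prrx2 none was listed either, and Irx4 had none in that window. A gene that is not listed has no known level here. The nearest listed gene was Trip13 for Irx4 (651 kb between starts, lower in knockout tumours at 193 against 421), Slc46a3 for Pdx1 (608 kb, higher at 458 against 189), Gm4544 for Hoxc10 (310 kb, lower at 136 against 302) and Cstad for Prrx2 (240 kb, higher at 51.8 against 7.09 normalised reads, means of 2 samples each). For Irx4, Hoxc10 and Prrx2 the nearest listed gene went the opposite way, and for Pdx1 the same way.

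Of the 17 listed homeobox genes, 11 had the higher mean in knockout tumours and 6 the lower one, and all 17 were called. Among all 1142 listed genes 61.3% were higher and 99.8% were called, so these counts say nothing particular about homeobox genes. The fitted log2 changes of the chromosome 19 genes were -7.60 to -6.92 and that of Dlx6 was 3.67. Those of Lbx1, Nkx2-3, Dlx6 and Hoxc10 depend on the pseudocount, since 1 group is at 0. The remaining 7 genes were at 1.15 to 1.88 and, for Pbx3, -1.23. Sizes were not tested against each other.

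**Figure D3:**
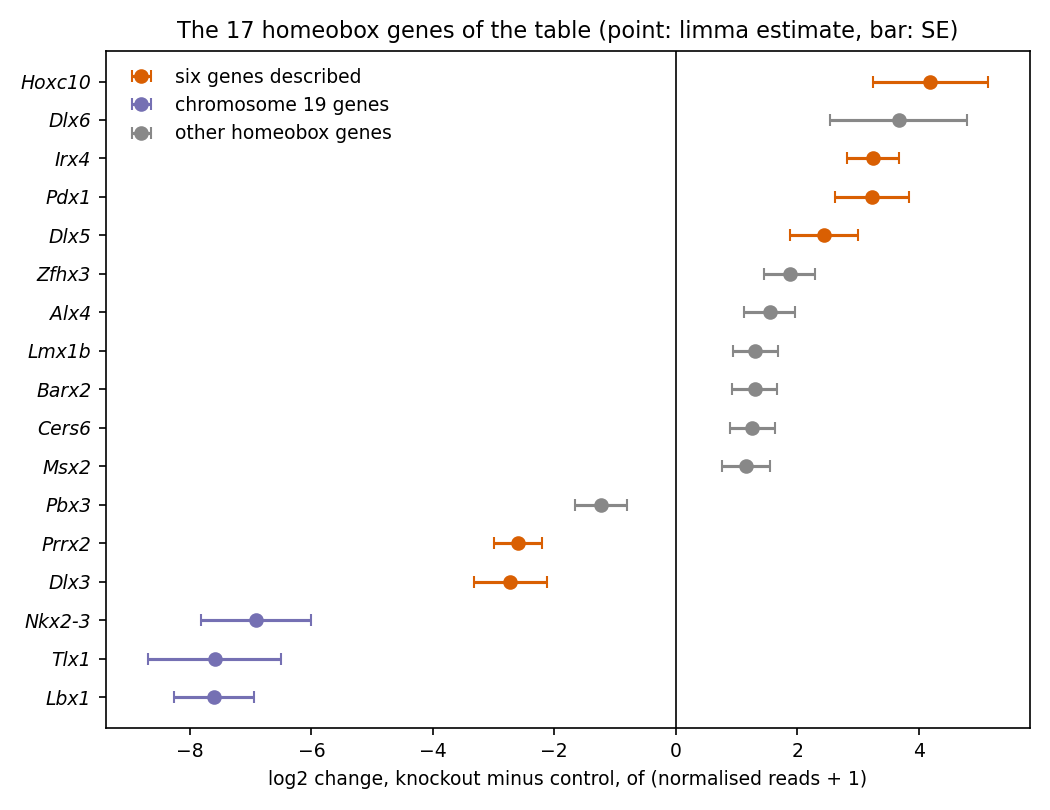
Log2 change of (normalised reads + 1), knockout minus control (x axis), of the 17 listed homeobox genes (y axis, sorted). Points are limma estimates and bars SE. Orange marks Irx4, Pdx1, Dlx5, Hoxc10, Dlx3 and Prrx2, violet the chromosome 19 genes and grey the others. Of the 17 genes 11 lie to the right of 0 and 6 to the left, where 61.3% of all 1142 listed genes were higher.

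By family, the listed genes were few. The 39 Hox genes looked up had 1 listed, Hoxc10, and the 13 ParaHox, Cdx and other Hox-like genes had 1, Pdx1. Of 9 Distal-less and Msx genes 4 were listed, and Dlx5, Dlx6 and Msx2 were higher and Dlx3 lower in knockout tumours. Msx2, a factor induced by bone morphogenetic proteins, averaged 197 ± 63.5 normalised reads in knockout tumours and 85.5 ± 0.480 in control tumours. Of 18 Iroquois, Meis and Pbx genes 2 were listed, Irx4 and Pbx3. Pbx3, a cofactor of Hox proteins, averaged 70.2 ± 2.98 in knockout tumours and 172 ± 66.5 in control tumours. Of 38 paired-like genes 2 were listed, Prrx2 and Alx4. Alx4, which with Prrx genes belongs to the paired-like class and acts in limb and mammary stroma, averaged 128 ± 17.9 in knockout tumours and 43.3 ± 5.92 in control tumours (SD, n = 2 each), so it and Prrx2 went opposite ways.

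Of 42 other NK-like genes 4 were listed. On chromosome 19, Tlx1 had 3.61 and 0.959 normalised reads in the knockouts against 2251 and 149 in the controls, Lbx1 had 0 in both knockouts against 239 and 156, and Nkx2-3 had 0 in both against 51.1 and 279. Barx2, the remaining one, averaged 674 ± 87.4 in knockout tumours and 282 ± 105 in control tumours. Of 61 genes of further classes 3 were listed. Zfhx3, a large zinc-finger homeodomain factor, averaged 348 ± 17.7 in knockout tumours and 99.7 ± 47.5 in control tumours. Lmx1b, a factor of the dorsal limb, averaged 328 ± 46.6 in knockout tumours and 134 ± 39.0 in control tumours. Cers6, a ceramide synthase with a homeobox-like domain, averaged 182 ± 1.58 in knockout tumours and 75.4 ± 0.376 in control tumours (SD, n = 2 each). With TMM scaling on the listed genes Zfhx3 was the only one of Msx2, Alx4, Barx2, Zfhx3, Lmx1b and Cers6 still called, and with RLE none of these 6 was, though none turned round. With equal totals over the listed genes Msx2 alone of these 6 was not called.

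Genes linked to these factors in other tissues were looked up in lists, and most were not listed. Of 28 genes of bone morphogenetic protein signalling, which acts upstream of Distal-less and Msx genes, 5 were listed, 3 higher and 2 lower. All 5 were called, as 99.8% of all listed genes were. Id4, an inhibitor of helix-loop-helix factors, had 1026 and 914 normalised reads in the knockouts against 71.2 and 169 in the controls, and Id3 had 601 and 583 against 141 and 206. Fst, follistatin, a secreted inhibitor of activins, had 466 and 451 in the knockouts against 115 and 206 in the controls. Bambi, a decoy receptor, had 195 and 196 in the knockouts against 339 and 491 in the controls, and Bmp6, a ligand, had 17.2 and 23.0 against 75.2 and 67.8. The 5 genes went both ways, as the Distal-less genes did. The call of Fst was lost with TMM and with RLE, and that of Id3 with RLE.

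Of 24 pancreas and islet genes, the context in which Pdx1 is best known, Mafa alone was listed. Mafa, an activator of the insulin gene, had 37.0 and 43.1 normalised reads in the knockouts against 9.02 and 1.13 in the controls, higher as Pdx1 was, but it was not called with TMM or RLE scaling. None of 18 heart muscle genes, the context of Irx4, and none of 28 Polycomb and trithorax genes, known regulators of homeobox genes, was listed. Of 24 epidermis and hair genes, the context of Dlx3, Krt79 was lower, at 169 and 155 in the knockouts against 261 and 412 in the controls, and Krt71 higher, at 64.2 and 42.2 against 11.0 and 15.8, a call lost with TMM and with RLE. Of 16 bone genes, the context of Dlx5, only Sparc was listed, at 14711 and 18642 normalised reads in the knockouts against 5246 and 7102 in the controls, again not called with TMM or RLE.

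Genes that mark particular cell types also differed between these tumours. Of 23 fibroblast and mesenchyme genes, the context of Prrx2, 4 were listed, with a summed level of 21076 and 27179 normalised reads in the knockouts against 10519 and 12848 in the controls. Sparc, Mmp2 and Dcn were higher and Fn1 lower in knockout tumours, so 3 of the 4 went opposite to Prrx2 and none was at 0. With TMM 1 was called higher and 1 lower, and with RLE 0 and 1. Of 23 skeletal muscle genes 10 were listed and all 10 were lower, as Dlx3 and Prrx2 were, with a sum of 89.5 and 62.3 in the knockouts against 728 and 1130 in the controls. Acta1, skeletal actin, had 26.2 and 4.79 in the knockouts against 431 and 384 in the controls, and Myh1 and Pvalb were at 0 in 1 knockout each. The muscle genes differed in which control was higher. Ryr1 had 112 and 36.2 in controls 1 and 2, but Mylpf had 47.1 and 115 and Tnnt3 24.1 and 143. Dlx3 and Prrx2 were higher in control 1, as Acta1 and Ryr1 were and Mylpf and Tnnt3 were not. The 5 listed luminal genes were all higher, as Irx4, Pdx1, Dlx5 and Hoxc10 were, with a sum of 19548 and 23059 in the knockouts against 4666 and 8005 in the controls, and none was at 0. Of these 5, 4 were called with TMM and 3 with RLE. Of 15 basal and myoepithelial genes 9 were listed, 8 higher (Jag2 among them, whose sign turned with RLE scaling) and 1 lower (Krt14), with a sum of 43458 and 44877 in the knockouts against 11821 and 18016 in the controls, and none was at 0. Of these 9, 6 were called higher and 1 lower with TMM, and 5 higher and 1 lower with RLE. Acta2, smooth muscle actin, had 11899 and 11753 in the knockouts against 1369 and 3042 in the controls. Without either knockout no gene of these other lists was called. The part of these cell types in the values of the 6 genes was not tested.

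The listed genes most like each of the 6 were found by the distance between profiles of log2(value + 1) over the 4 samples, centred on their means. With 4 samples in 2 groups, many genes lie close, so a short distance is a description only. Dlx3 and Prrx2 were each other's nearest gene in the table (distance 0.255). For Irx4 the nearest were Id4 (0.203) and Dsc3 (0.263), a desmosomal cadherin of stratified epithelium. Dsc3 was also among those of Pdx1 (0.272), and had 72.3 and 72.9 normalised reads in the knockouts against 4.01 and 7.91 in the controls. For Dlx5 they were Gm42984 (0.162), an antisense gene, and Cntn2 (0.234), a neuronal adhesion protein. For Hoxc10 they were Scn3a (0.166), a sodium channel that also had no control read, and Mup6 (0.318), one of a family of near-identical genes whose reads can be shared. The second nearest were Acp7 for Dlx3 (0.355) and Gm34354 for Prrx2 (0.351).

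The sign of every one of the 6 genes held with every scaling tried, as the plot of changes by setting shows, but the calls did not all hold. With RLE scaling 642 of the 1142 listed genes were higher, against 700 with the deposited scaling. Signs also held when any sample was left out, but could not have turned there, since the groups of each of the 6 genes did not overlap. Without either knockout most calls were lost. In those fits a gene's own spread came from the controls alone, and Hoxc10 was at 0 in both. A call that held there is therefore no measure of how firm a gene is. The log2 change of Hoxc10 was 4.53 without knockout 1 and 3.86 without knockout 2, on 15 and 23 reads in knockouts 1 and 2. With RLE scaling in DESeq2 Pdx1 (adjusted p = 0.0503) and Dlx5 (adjusted p = 0.0943) were not called. With that scaling 21.6% of the called genes were higher, and 35.9% with TMM, against 61.4% with the deposited scaling. The median log2 change over all listed genes was 0.13 with RLE and 0.48 with TMM, against 1.23. Both take most genes as unchanged, which genes selected for difference do not meet, and so pull this median towards 0.

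**Figure D4:**
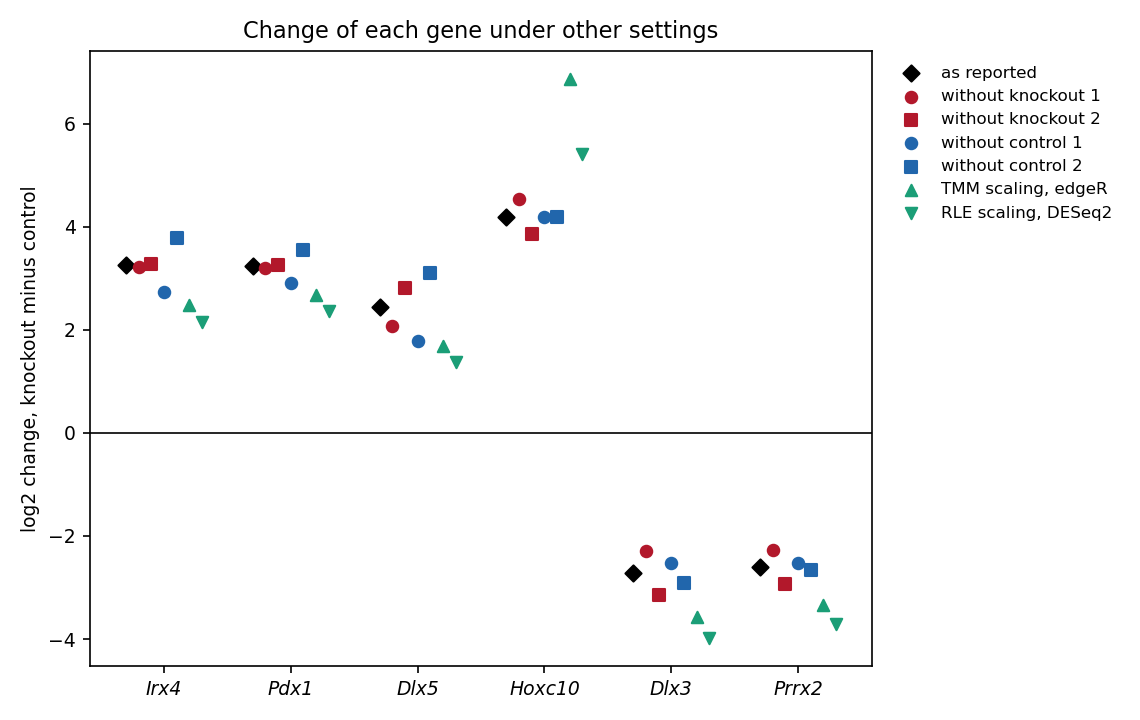
Log2 change, knockout minus control (y axis), of the 6 genes under 7 settings (see legend: all samples, 1 sample left out, or scaling on the listed genes with edgeR or DESeq2). Each symbol is 1 fit. Irx4, Pdx1, Dlx5 and Hoxc10 stay above 0 and Dlx3 and Prrx2 below it in every fit shown. Leaving out a sample cannot turn a sign here, since the groups of each gene do not overlap.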

How the data were processed

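Each deposited table gave 1 tumour sample's signal value for the same 1142 genes, with the coordinates and gene length of the authors' files. Per the submitters' processing notes, Bowtie 0.12.2 and the builds hg38, GRCm38 and mm10 were named, with no role for each. The sources used here give no counting tool, strand setting or selection criteria. In every sample 100% of the deposited signal values came out as whole reads (within 1e-06) when divided by the lowest non-zero one, as gene counts divided by 1 size factor are. In control 1 that value is 1.00215, near 1, yet its deposited values were not whole numbers themselves, with Irx4 at 34.073. That the lowest value stands for 1 read is assumed in every sample. Intervals and floors cover counting error only.

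Genes were tested with limma 3.58.1 (R 4.3.3, trend) on log2(value + 1), with a mean of at least 0.5, genotype as the single term and Benjamini-Hochberg adjustment over all 1142 genes at 0.05. The members, gene lists and tests were chosen with earlier results of these data known. The genes named were the 6 members, the listed homeobox genes, per list up to 4 listed genes of highest mean, per member the 2 most similar genes and the nearest listed gene. Of the listed genes, Bmp6, Esr1, Jag2, Myh1 and Pvalb were also named, outside this rule. A gene that this rule names is not reported here. Alternatives used edgeR 4.0.16 and DESeq2 1.42.0 on recovered reads. The scripts were tested on simulated data. A UTR is the longest annotated in GENCODE M21, in which 1141 gene identifiers were found, 1097 at identical coordinates. Python 3.11.15 drew the figures.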

Additional observations from a re-analysis of the deposited data

How the results depend on the processing

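No sign of the 6 genes turned in 13 alternatives. Only the scalings computed from the listed genes could have turned one, since groups that do not overlap keep their order in the others. The number called was 6 of 6 except for 4 with DESeq2 (RLE from the listed genes), and from 1 to 6 when a sample was left out. The table count was 690 with TMM in edgeR and 564 with DESeq2, against 1140, and from 13 to 1070 with a sample left out. Of the 17 homeobox genes 11 and 8 were called with TMM and DESeq2, and from 2 to 15 with a sample left out. The lone sample of a group is then assumed to vary like the others. Pseudocounts of 0.1 and 5, no filter or a minimum mean of 5, and equal totals over listed genes kept all 6 called. No filter and a minimum mean of 5 kept the same 1142 genes, so these fits were the same as the main one. With the replicate number as a block, 1142 genes and 6 of 6 members were called. The labels do not pair samples by number, and deviations of same-numbered samples correlated at r = 0.0429 over genes. Log2 changes of Irx4 ran from 2.15 to 3.77, of Pdx1 from 2.36 to 3.55, of Dlx5 from 1.37 to 3.10, of Dlx3 from -3.97 to -2.26 and of Prrx2 from -3.71 to -2.27. The causes were not tested. Depth limits Hoxc10 and the controls of Pdx1 most.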

Other observations

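Matches to the seeds of both miR-9 strands were also counted in the 3' UTRs of the other listed homeobox genes. Cers6, higher in knockout tumours, held 1 match for miR-9-5p and 1 for miR-9-3p in a UTR of 5688 bases. Zfhx3, also higher, held 1 match for miR-9-3p in 4528 bases, and Pbx3, lower, held 2 in 1560 bases. With Dlx3, 2 of the 17 listed homeobox genes held the miR-9-5p match (11.8%), against 12.2% of all protein-coding genes with a 3' UTR, and 3 held the miR-9-3p match (17.6%), against 11.3%. Among these 17 genes, those with a match were thus found on both sides, Cers6 and Zfhx3 higher and Dlx3 and Pbx3 lower.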
